A study of Mus musculus with 2 samples.

Results

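The genes Actb, Tuba1b and Tfrc were examined in lung RNA of control and paraquat-treated mice. Each was measured by 1 probe that was spotted 20 times on each array, which gave 60 spot positions for the 3 genes, and 15 genes in all were spotted in this way among 59709 probes other than control and negative probes. The 3 genes were chosen on earlier results of the same values, the processed signal of each spot on both arrays, so that the differences below are a description with no test. Male BALB/c mice at 8 weeks of age received either saline or 10 mg/kg paraquat, a herbicide that generates reactive oxygen species, injected into the peritoneum daily over 5 days. The lower lobe of the right lung was taken on day 12. The ending of both sample labels was read here as RNA of 3 lungs mixed for each group, and not as a replicate number. Each group was then measured on 1 array, so no difference has a replicate check between mice. The labels state that 70% of the paraquat group had died. Both arrays were read in the same scan. Array and group cannot be told apart, because each array held only 1 group.

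Actin and tubulin are the building blocks of the microfilaments and microtubules, and both are abundant in every cell of the lung. Actb encodes beta-actin, a cytoplasmic actin of the cell cortex and of stress fibres, and Tuba1b encodes an alpha-tubulin that pairs with beta-tubulin in microtubules. In fibrotic lung, fibroblasts that become contractile rebuild their actin filaments. Tfrc encodes the transferrin receptor, which brings iron-loaded transferrin into the cell and is abundant in dividing and erythroid cells. Its messenger RNA is stabilized by iron regulatory proteins when the cell lacks iron. All 3 genes are often used as internal references for RNA measurements.

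The files identified the transcripts as NM_007393.3 for Actb, NM_011654.2 for Tuba1b and NM_011638.3 for Tfrc. In RefSeq these genes lie on chromosomes 5, 15 and 16. The probe sequences were not used here. Actb and Tuba1b have close relatives in the genome, including gamma-actin, actin pseudogenes and other alpha-tubulin genes, and binding of their transcripts to the probes was not tested.

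Promoter windows of 300 bases were found in RefSeq (GRCm38.p6) for 2 of the 3 genes, Tuba1b and Tfrc, and 1 window of each is shown because both genes were brighter on the paraquat array. Tfrc had 2 overlapping windows, and the one with more matches is printed, a choice made after the matches were seen. Each window runs 5′ to 3′ from 250 bases before to 50 bases after an annotated start. Capitals mark matches on either strand to the TATA box letters TATAA, the CCAAT box, the GC box GGGCGG and the cyclic AMP response core TGACGT.
Tuba1b, chr15:98934341-98934640, minus strand: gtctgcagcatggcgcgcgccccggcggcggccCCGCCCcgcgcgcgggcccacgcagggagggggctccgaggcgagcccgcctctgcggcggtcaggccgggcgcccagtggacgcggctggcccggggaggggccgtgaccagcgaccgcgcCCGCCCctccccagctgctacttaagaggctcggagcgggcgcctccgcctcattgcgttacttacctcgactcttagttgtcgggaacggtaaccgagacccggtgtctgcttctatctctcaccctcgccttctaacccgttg
Tfrc, chr16:32608872-32609171, plus strand: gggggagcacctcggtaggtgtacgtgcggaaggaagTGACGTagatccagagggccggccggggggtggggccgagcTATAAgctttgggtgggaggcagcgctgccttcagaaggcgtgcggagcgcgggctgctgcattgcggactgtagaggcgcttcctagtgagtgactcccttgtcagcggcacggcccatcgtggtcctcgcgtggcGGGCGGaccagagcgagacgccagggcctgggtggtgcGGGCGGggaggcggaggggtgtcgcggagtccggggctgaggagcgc
The Tuba1b window was 72.7% G and C, and the Tfrc window was 70.0%, beside a median of 52.7% over 32851 windows. GGGCGG occurred 2 times in each of the 2 windows and in 35.7% of all windows. TATAA and also TGACGT occurred 1 time each in the Tfrc window, and 24.9% and 7.51% of all windows held them. Neither occurred in the Tuba1b window, and CCAAT, found in 37.4% of all windows, was in neither of the windows shown. The other Tfrc window, chr16:32608646-32608945, was 66.0% G and C and held CCAAT and TGACGT 1 time each, with 0 matches to TATAA or GGGCGG. Its TGACGT lies where the windows overlap and is the same site as in the window shown, so the 2 windows hold 1 such match between them. These matches are a description of the letters and not evidence of binding.

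The cytoskeletal gene Actb was brighter on the paraquat array. Its 20 spots had processed signals of 36217 to 52120 on the control array, with a median of 46617. On the paraquat array they had signals of 59725 to 71662, with a median of 63403. No control spot reached the lowest paraquat spot. After quantile normalization the log2 level was 15.47 in control and 15.99 with paraquat. The log2 difference was 0.52, which is 1.43-fold. The SD over spots was 0.101 in control (19 spots) and 0.0933 with paraquat (19 spots), leaving out the spot at 1 position that was marked as an outlier on both arrays, which gives an SD of 0.137 for an unnormalized difference between single spots. This SD covers the error between spots of the same RNA and not that between mice.

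The alpha-tubulin gene Tuba1b differed more between the arrays than Actb did. Its spots had signals of 36132 to 52519 on the control array, with a median of 45727, and of 71068 to 91551 on the paraquat array, with a median of 85083. The 2 sets of spots did not overlap. Among the other 12 repeatedly spotted genes the sets were likewise apart for Gapdh, which was brighter with paraquat. They were also apart for Nono, Rpl13a, B2m and Hsp90ab1, which were dimmer, and overlapped for the remaining genes. Its quantile-normalized log2 level was 15.39 in control and 16.28 with paraquat, and the difference of 0.88 corresponds to 1.84-fold. The SD over 20 spots was 0.157 in control and 0.117 with paraquat, and that of a difference between single spots was 0.195. No outlier mark was set on any of these spots.

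The receptor gene Tfrc was also brighter on the paraquat array. Its control spots had signals of 3668 to 6522, with a median of 4833. On the paraquat array its spots lay between 5779 and 8253, with a median of 6658. Before normalization the 2 sets of spots overlapped, since 3 control spots lay above the lowest paraquat spot. All 3 were among 6 control spots that Feature Extraction had marked as outliers, and these 6 were the 2 dimmest and the 4 brightest of the 20. Without them the SD over the control spots was 0.0871 (14 spots), and with all 20 spots it was 0.209. The SD was 0.145 over the 20 spots of the paraquat array. Quantile normalization gave Tfrc log2 levels of 12.03 in control and 12.85 with paraquat. They differed by 0.83, or 1.77-fold.

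**Figure D1:**
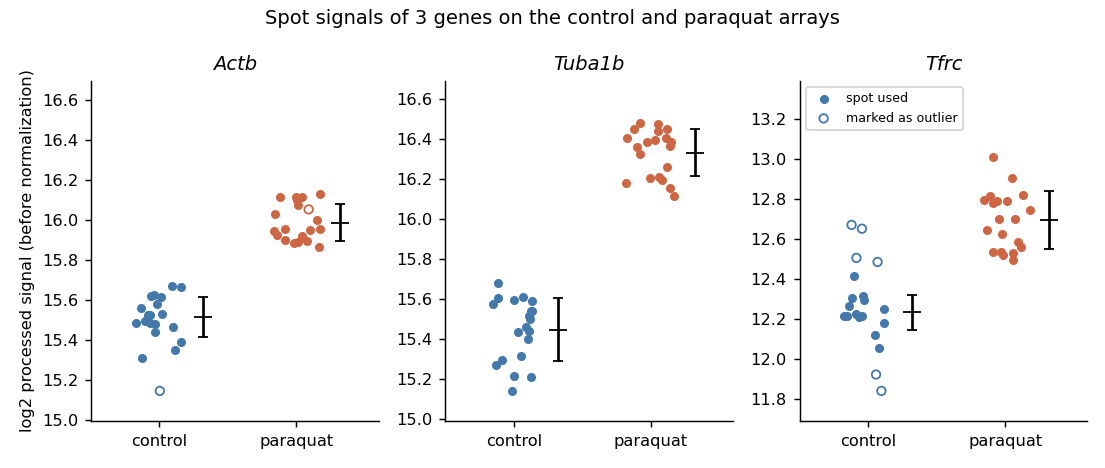
Log2 processed signal before normalization (y axis) of every spot of Actb, Tuba1b and Tfrc on the control and paraquat arrays, with spots marked as outliers drawn open and the mean and SD of the spots used drawn as black bars. For Actb and Tuba1b the arrays do not overlap, whereas 3 open control spots of Tfrc lie above its lowest paraquat spot.

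Under quantile normalization 0 of the 3 genes reached a 2-fold difference in either direction. Of the 40078 probes detected on either array, 37.2% passed 2-fold, with 18.2% higher and 18.9% lower with paraquat. By any amount, 3 of the 3 genes were higher, beside 45.4% of these probes. The difference of Actb was larger than that of 71.9% of the probes, that of Tfrc larger than 78.8% and that of Tuba1b larger than 79.8%. Among 59625 probes on each array, Actb was the 352nd brightest on the control and the 184th on the paraquat array. Tuba1b went from rank 382 to rank 112, and Tfrc from rank 2783 to rank 1868.

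Spots at the same row and column of both arrays were then set beside each other, since each array carried the same layout. Before normalization, 60 of 60 positions were brighter on the paraquat array. Of the other 12 repeatedly spotted genes, Gapdh alone also had 20 of 20 positions brighter. The fold difference lay between 1.22 and 1.88 for Actb, between 1.56 and 2.24 for Tuba1b, and between 1.07 and 1.97 for Tfrc. After quantile normalization 60 of 60 positions were again higher, and the spots of the 2 arrays did not overlap for any of the 3 genes. All 20 positions were also higher for Ldhal6b, Gapdh, Tbp, G6pd2, Hprt and Gusb. The count was 15 for Gk, 4 for Nono and 0 for Ppia, Rpl13a, B2m and Hsp90ab1. Normalized spots were also apart for Gapdh and Tbp, which were higher, and for Rpl13a, B2m and Hsp90ab1, which were lower. Normalized Tfrc spots reached 12.50 on the control array and started at 12.66 on the paraquat array. Spots of 1 array share the same RNA, so this counts positions and not replicates of the treatment.

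The signals of all 3 genes varied with the position on the array. The arrays had 164 columns, and the middle columns 41 to 124, a division chosen after seeing the data, were brighter than the outer ones. On the control array the mean log2 signal of the outer spots minus that of the middle spots was -0.18 for Actb (9 outer and 11 middle spots), -0.20 for Tuba1b (9 and 11) and -0.34 for Tfrc (14 and 6). On the paraquat array the signal before its trend correction showed nearly the same pattern, with -0.14 for Actb, -0.19 for Tuba1b and -0.32 for Tfrc. After that correction the values on the paraquat array were -0.036, -0.16 and -0.16, in the same order. This trend correction multiplies each spot by a smooth factor, and for these genes it was applied on the paraquat array only. The factor ranged from 0.887 to 1.23 for Actb, from 0.919 to 1.27 for Tuba1b and from 0.910 to 1.34 for Tfrc. On the control array the processed signal was the signal before correction.

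The spots of both arrays resembled each other more before this correction than after it. Across the 20 positions of Actb, Pearson's r between the arrays was 0.925 before and -0.019 after the correction. For Tuba1b it fell from 0.869 to 0.310, and for Tfrc from 0.886 to 0.405. These correlations are across spots that share 2 RNA samples and a layout, and they describe the arrays. The SD of the difference between spots at the same position rose from 0.0526 to 0.159 for Actb, from 0.0774 to 0.164 for Tuba1b and from 0.0968 to 0.200 for Tfrc. The same direction was found for all 15 repeatedly spotted genes. Their median r was 0.756 before and 0.230 after the correction, and 15 of 15 had a larger SD of the difference after it. Within the paraquat array alone, the SD over all 20 spots was smaller after the correction for these 3 genes. It went from 0.0992 to 0.0920 for Actb, from 0.136 to 0.117 for Tuba1b and from 0.188 to 0.145 for Tfrc. Without its outlier spot, the SD of Actb rose from 0.0803 to 0.0933. Over all 20 spots the SD also rose for Gapdh and Rpl13a and fell for the remaining genes.

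**Figure D2:**
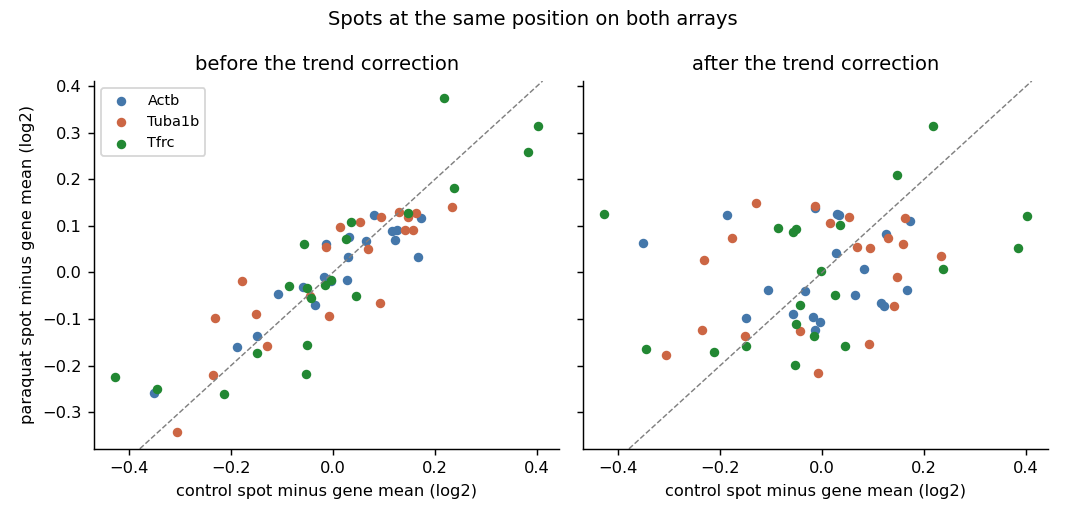
Deviation of each spot from the mean of its gene (log2) on the control array (x axis) and at the same position on the paraquat array (y axis), before (left) and after (right) the trend correction, with the line of equality dashed. Before the correction the points follow the line, with r of 0.925, 0.869 and 0.886 for Actb, Tuba1b and Tfrc, and after it they scatter.

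The single spots with the largest factors show the size of this step. The Actb spot in row 23 and column 2 had a difference of 0.60 on the log2 scale before and of 0.91 after the correction. For the Tfrc spot in row 16 and column 17, it went from 0.56 to 0.98, and for the Tuba1b spot in row 12 and column 52 from 0.82 to 1.16. In columns 1 to 64 the unnormalized log2 difference of Actb was 0.64 (7 spots), compared with 0.41 in the columns above 80 (12 spots). Before the correction these values were 0.54 and 0.50. For Tfrc they were 0.58 and 0.32 after, and 0.43 and 0.31 before the correction (8 and 12 spots). For Tuba1b they were 0.96 and 0.80 after, and 0.87 and 0.81 before it (9 and 8 spots). In these sets of columns 3 of the 3 genes were brighter on the paraquat array, with and without the correction.

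**Figure D3:**
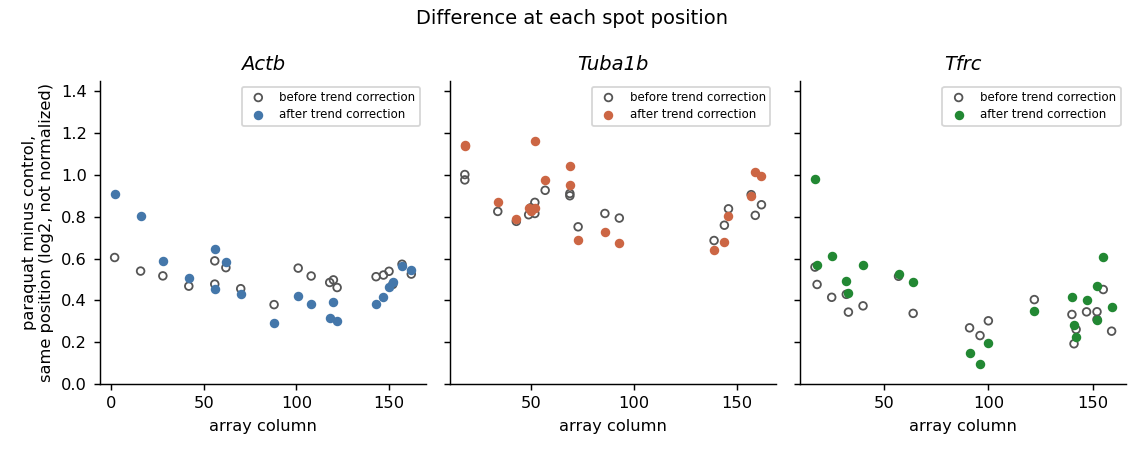
Log2 difference between the paraquat and control spots at the same position, not normalized (y axis), against the array column (x axis), before (open) and after (filled) the trend correction of the paraquat array. All points lie above 0, and the filled points spread more with the column than the open ones, from 0.29 to 0.91 against 0.38 to 0.60 for Actb.

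The mean over spots depended less on the correction than single spots did. With the signal before the correction, the quantile-normalized log2 difference was 0.55 for Actb, 0.84 for Tuba1b and 0.76 for Tfrc. Without normalization, the same-position differences before the correction ended at 0.60 for Actb and began at 0.69 for Tuba1b, so that the 2 ranges did not overlap, whereas after the correction they did. The gap between the means of both genes was itself smaller before the correction, at -0.34 against -0.41 without normalization and -0.30 against -0.37 with it. The quantile-normalized difference of Actb minus that of Tuba1b was -0.37, and it lay between -0.41 and -0.29 under the alternatives. Shifts and scalings of a whole array cannot change this gap, which was -0.41 with and without them.

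How Tfrc stood beside the other 2 genes depended on the normalization. Without normalization its log2 difference was 0.46, close to the 0.47 of Actb, whereas quantile normalization raised it by 0.37 and left those of Actb and Tuba1b within 0.045 of their unnormalized values. Among the 50 probes closest to Tfrc in mean signal, the median unnormalized difference was -0.54, compared with -0.041 among the 50 closest to Actb and -0.071 among the 50 closest to Tuba1b. After normalization, 44 of the 50 probes near Tfrc had a smaller difference than Tfrc, 41 of 50 near Actb than Actb, and 47 of 50 near Tuba1b than Tuba1b. The difference of Tuba1b minus that of Tfrc was 0.06 after quantile normalization, within the spread between spots.

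The direction itself depended on the scale to which the arrays were brought. All 3 genes were higher on the paraquat array under 15 of 16 alternatives, and all 3 were lower when the signals were scaled on Gapdh, a glycolytic enzyme that the study used as its PCR reference. On that scale the log2 difference was -0.74 for Actb, -0.32 for Tuba1b and -0.75 for Tfrc, since the unnormalized difference of Gapdh was 1.21. A shift of the arrays to a common 75th percentile raised all 3 genes past 2-fold, with 1.39 for Actb, 1.81 for Tuba1b and 1.38 for Tfrc, because the 75th percentile of all probes was lower by 0.923 (log2) on the paraquat array, at 6.92 against 7.84. The median difference of all detected probes was -0.10 under quantile normalization, 0.031 with the 75th percentile shift, -0.89 with no normalization and -2.10 when scaled on Gapdh. The shift, no normalization and the scaling on Gapdh differ by a constant added to every probe, so the distance of each gene from this median is the same in all 3 of them.

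**Figure D4:**
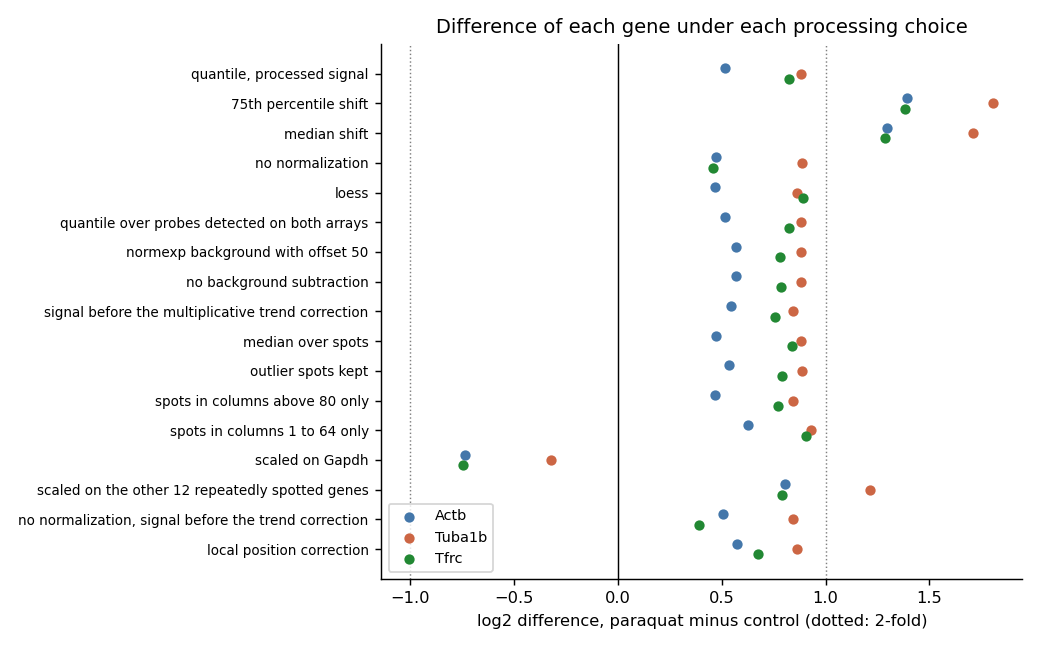
Log2 difference, paraquat minus control (x axis), of Actb, Tuba1b and Tfrc under quantile normalization (top row) and 16 alternatives, with dotted lines at a 2-fold difference. The 3 genes lie to the right of 0 in every row other than scaling on Gapdh, and all 3 pass 2-fold with a 75th percentile or a median shift.

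Within the 15 repeatedly spotted genes, Tuba1b had the 3rd, Tfrc the 4th and Actb the 8th highest quantile-normalized difference. The highest was 1.31 for Ldhal6b, which lay near background and whose place in the order is therefore uncertain. Only 13 of its 20 control spots were well above background, 8 of 20 positions were brighter with paraquat before normalization, and the SD of a difference between its single spots was 1.41. The lowest was -2.01 for Hsp90ab1, a chaperone. Above Tuba1b stood Gapdh with 1.20, and below Tfrc stood Tbp, a general transcription factor, with 0.64. The differences of Tuba1b and Tfrc were 0.057 apart. The genes closest to Actb were Gk (0.57), G6pd2 (0.58) and Tbp, and the SD of a difference between single spots was 1.26 for Gk and 0.422 for G6pd2. After Actb came Hprt with 0.37. Tbp, G6pd2 and Gk were higher under quantile normalization but lower without normalization, at -0.17, -0.29 and -0.35. Of the 15 genes 10 were higher under quantile normalization, 12 with a 75th percentile shift, 6 with no normalization and 0 when scaled on Gapdh. The last count follows from the construction, since Gapdh had the highest unnormalized difference of the 15. Under quantile normalization the median of the other 12 genes was 0.36. With the outlier spots included, the SD of a difference between single spots was 0.158 for Actb and 0.254 for Tfrc.

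**Figure D5:**
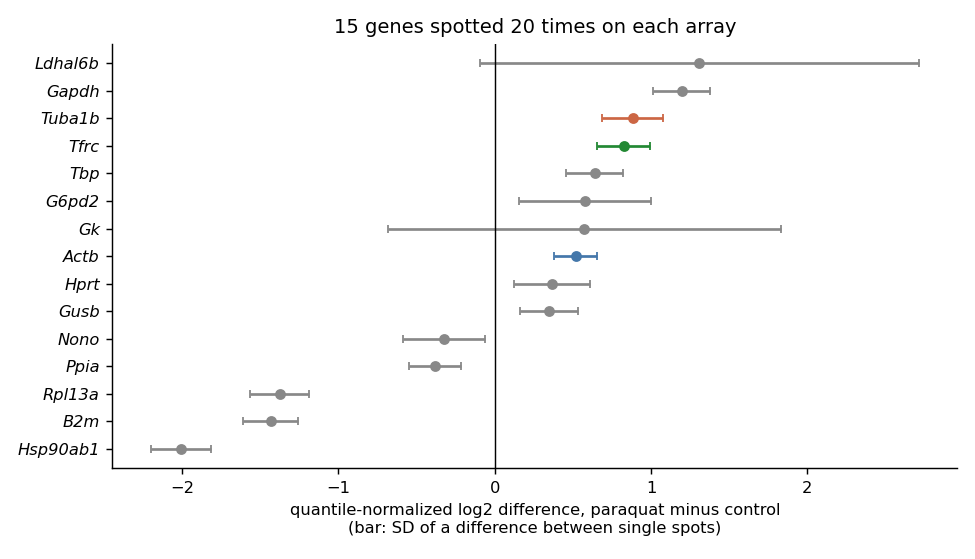
Quantile-normalized log2 difference, paraquat minus control (x axis), of the 15 genes spotted 20 times on each array, with bars for the SD of an unnormalized difference between single spots and Actb, Tuba1b and Tfrc in colour. The 3 coloured genes lie between 0.52 and 0.88, inside the range from -2.01 for Hsp90ab1 to 1.31 for Ldhal6b.

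Other genes of the same pathways could not be set beside them. Of 54 genes listed for the actin and tubulin cytoskeleton, 2 had a name in the files, Actb and Tuba1b. Of 25 genes of iron uptake and storage, 1 had a name, which was Tfrc. Of 15 erythroid genes, 10 proliferation genes and 31 markers of lung, blood and heart cells, 0 had a name, so that the labelled tissue was not checked against its markers. In RNA of whole lung, more cells of a type and more RNA per cell cannot be told apart.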

How the data were processed

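Lung RNA of saline-treated control mice and of paraquat-treated mice was hybridized to 1 Agilent array per group, of a mouse lncRNA design on mm9 that is read in 1 colour. The authors deposited spot intensities from Feature Extraction 10.7.3.1, which had subtracted the background and a spatial trend, and on the paraquat array had also divided out a multiplicative trend. The authors' processed log2 values of 14331 probes, quantile-normalized in GeneSpring GX, held 0 of the 3 probes and were not used further.

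Here the log2 processed signal was averaged over the spots of a probe without those marked as non-uniform or as population outliers. Negative probes were left out, and 59625 probes were quantile-normalized between the arrays, as in the study. Single spots were placed on the normalized scale by interpolation. The difference is paraquat minus control. A probe counted as detected when well above background, which held for 62.7% on the control and 58.6% on the paraquat array. No spot of the 3 genes was saturated. With 1 array per group no p-value can be given, and precision is limited by having 2 arrays. Of 123 RefSeq accessions 116 matched a symbol. The 3 genes, the lists and the alternatives were chosen with earlier results of these data known. Named besides the 3 genes are the other 12 repeatedly spotted genes. Differences are given for Gapdh and for those next to the 3 genes or at either end of an order. The normalization code was run on simulated data in which few probes changed, equally in both directions. That setting does not cover arrays on which 37.2% of detected probes passed 2-fold. Python 3.11.15 with numpy 2.4.6, pandas 2.3.3 and scipy 1.17.1, and limma 3.58.1 in R 4.3.3, served for the computations.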

Additional observations from a re-analysis of the deposited data

How the results depend on the processing

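Each of the 3 genes was computed under 16 alternatives, of which 1 (no normalization with the signal before the trend correction) was added once the data had been seen (chosen after seeing the data). For these genes the difference on the log2 scale changed sign in 1 of them, scaling on Gapdh, with -0.74 for Actb, -0.32 for Tuba1b and -0.75 for Tfrc. With a 75th percentile shift it was 1.39, 1.81 and 1.38, and with a median shift 1.30, 1.71 and 1.28 in the same order. Scaled on the other 12 repeatedly spotted genes it was 0.80 for Actb and 1.22 for Tuba1b. For Tfrc it was 0.46 with no normalization and 0.39 with no normalization before the trend correction. All other alternatives, among them loess, normexp and local position correction, moved the differences by less than the SD between spots.

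The difference of Actb minus that of Tfrc was 0.012 with a 75th percentile shift, a median shift or no normalization, and 0.12 with no normalization before the trend correction, against -0.31 with quantile normalization. That of Tuba1b minus Tfrc was 0.43 under these 3 settings, 0.45 before the trend correction and -0.031 with loess. The SD over paraquat spots within the columns above 80 was 0.0377 for Actb and 0.0635 for Tuba1b, and within columns 1 to 64 it was 0.0368, 0.0379 and, for Tfrc, 0.0941. With outlier spots kept the SD of Tfrc on the control array was 0.209. With quantile normalization, 7305 detected probes passed 2-fold upwards and 7585 downwards. These counts were 3661 and 18201 with no normalization, 3503 and 17825 with none before the trend correction, 4812 and 4504 with quantiles over probes detected on both arrays, 3013 and 2681 with normexp, 3697 and 3261 with no background subtraction, 1127 and 32450 scaled on Gapdh, and 5042 and 13091 scaled on the other 12 genes. The shifts and scalings move every probe by 1 constant, which sets their part of these changes and leaves the gaps between genes as they are without normalization. For the other alternatives the cause was not tested. No paired analysis was possible because each group had 1 array, and no replicate could be left out. The authors' processed values gave no value for these genes.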
